A study of Mus musculus with 12 samples.

Results

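The G1 cyclins Ccnd1, Ccnd2, Ccnd3, Ccne1 and Ccne2, the kinases Cdk4 and Cdk6, the CDK inhibitors Cdkn1b and Cdkn1c, and Myc were followed in mouse liver after iron and glucocorticoid treatment. These 10 genes were taken by symbol from the 55414 genes of the count table, and all 10 passed the filter on low counts, which left 13857 genes for testing. Livers of 12 young adult female C57Bl/6J mice had been sequenced as bulk RNA, with 3 mice in each of 4 groups. The first injection was saline (NaCl) or 300 mg/kg FeSO4, an iron salt, and the second, 6 h later, was PBS or 10 mg/kg dexamethasone (DEX, a synthetic glucocorticoid, GC). Livers were taken 2 h after the second injection, so that the groups are NaCl/PBS (neither agent), NaCl/DEX (DEX alone), FeSO4/PBS (FeSO4 alone) and FeSO4/DEX (both), all at 8 h from the first injection. No group carried an engineered allele.

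Quiescent cells enter the cell cycle through G1. Growth factors raise D-type cyclins, which activate CDK4 and CDK6, and these phosphorylate the retinoblastoma protein (RB) so that E2F factors are released and cyclin E with CDK2 starts S phase. The proteins p27 (Cdkn1b) and p57 (Cdkn1c), like p21 (Cdkn1a), bind and restrain cyclin-CDK complexes, while MYC, paired with MAX on E-box DNA, drives ribosome and nucleotide synthesis and is an immediate early gene of the regenerating liver. Most hepatocytes of an adult liver rest outside the cycle.

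The promoters of the 2 G1 kinases are shown because both hold the E-box CACGTG, a site that MYC and MAX bind. After FeSO4 alone Cdk4 was called lower and Cdk6 higher, but the Cdk6 call was lost in 14 of 20 alternative fits. Whether MYC acts through these sites was not tested. The sequences are RefSeq records of build GRCm38.p6, from 250 bases before to 50 after the gene start, with E-boxes in capitals. The positions are chr10:127063285-127063584 for Cdk4 and chr5:3343643-3343942 for Cdk6, both on the plus strand, and they belong to another build than the mm39 genome used for the counts.
Cdk4: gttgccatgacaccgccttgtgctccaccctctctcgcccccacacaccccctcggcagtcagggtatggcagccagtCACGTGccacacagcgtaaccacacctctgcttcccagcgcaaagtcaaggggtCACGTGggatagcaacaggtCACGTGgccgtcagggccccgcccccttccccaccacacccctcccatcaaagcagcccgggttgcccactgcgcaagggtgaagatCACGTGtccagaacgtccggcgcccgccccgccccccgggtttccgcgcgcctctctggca
Cdk6: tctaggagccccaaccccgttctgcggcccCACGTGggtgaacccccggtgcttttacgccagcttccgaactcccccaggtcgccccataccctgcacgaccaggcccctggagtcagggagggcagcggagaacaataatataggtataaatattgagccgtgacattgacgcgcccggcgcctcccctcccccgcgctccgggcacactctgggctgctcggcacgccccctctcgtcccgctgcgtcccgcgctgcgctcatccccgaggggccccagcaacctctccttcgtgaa

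Cdk4 held 4 E-boxes, starting 172, 118, 98 and 11 bases before the gene start, and Cdk6 held 1, starting 220 bases before it. Of all 32851 mouse promoters of this length 7.15% held an E-box on either strand, and 8 promoters, 0.0244%, held 4 or more. Ccnd3, Ccne1 and Cdkn1b were also in the promoter table and had no E-box in this window. Ccnd1, Ccnd2, Ccne2, Cdkn1c and Myc were not in it. Other motifs were searched on both strands in the same 5 genes. SP1 boxes (GGGCGG, in 35.7% of all promoters) and CRE half-sites (TGACG, 20.8%) were each found in 4, the GRE half-site AGAACA (19.0%) in Ccne1 and Cdk6, the FOXO motif GTAAACA (3.65%) in Ccnd3, TATAAA (13.6%) in Cdk6, and the AP-1 motif TGANTCA (7.81%) in none. These matches describe letters, not bound sites.

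Between 16335651 and 23827340 reads per library were counted on genes. Values below are normalized counts, scaled by TMM to the mean effective library, and are listed for mice 1, 2 and 3. LFC is the log2 fold change from edgeR's quasi-likelihood test, given ± SE, and FDR its Benjamini-Hochberg adjusted p over all 13857 genes, with a call at 0.05 or less. In whole tissue, fewer cells of a type and less RNA per cell cannot be told apart. The 8 Kupffer cell markers all fell after FeSO4, with a summed level of 8652 to 9910 in NaCl/PBS and 4675 to 5426 in FeSO4/PBS mice. Of 7 tested neutrophil markers 5 rose, and the sum over the list of 8 went from 133 to 322 up to 807 to 965. Of 8 sinusoidal endothelial markers 5 fell and 1 rose (6426 to 7223 and 4472 to 6026), and of 5 tested erythroid markers 3 rose (1568 to 3737 and 2886 to 5563, over a list of 6). Hepatocyte markers rose in 3 of 7, stellate markers rose in 3 and fell in 2 of 8, cholangiocyte markers rose in 2 and fell in 1 of 7, and lymphocyte and mesothelial markers fell in 1 of 6 and 1 of 3. Pancreatic acinar markers had no call, with 5 of 7 (Prss2, Cpa1, Pnlip, Amy2a1 and Ctrb1) at 0 in both of these groups, and of the other lists the mesothelial marker Wt1 was at 0 in FeSO4/PBS and the neutrophil marker Ly6g in NaCl/DEX mice. After DEX in NaCl mice 1 neutrophil marker, 2 endothelial, 2 cholangiocyte and 1 stellate marker fell, and 1 endothelial and 1 hepatocyte marker rose. Over all genes 27.2% were called higher and 27.3% lower after FeSO4, and 6.5% and 7.15% after DEX in NaCl mice. Marker counts near these shares do not by themselves show a shift of a cell type. The part of these cell types in the results below was not tested. FeSO4/PBS mouse 1 stood apart from its group, with a chi-square of the counts per gene of 89.5 and 71.4 against mice 2 and 3, where the other pairs within a group gave 18.3 to 37.0. Without it the same 6 genes as below were called after FeSO4, Cdkn1b was also lower after FeSO4 among DEX mice (LFC -0.39, FDR 0.024), and Cdk4 was lower in FeSO4/PBS than in NaCl/DEX mice (-0.34, FDR 0.040). TMM factors were higher in the NaCl/PBS libraries (1.14 to 1.16) than in FeSO4 libraries (0.871 to 0.952). With scaling by library size alone the median LFC of all genes moved to -0.34 after FeSO4 and to -0.18 after DEX in NaCl mice, from -0.02 in both, so changes below are relative to the bulk of genes.

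Iron changed 6 of the 10 genes. Compared with NaCl/PBS mice, FeSO4/PBS mice had more Myc and Cdk6, and less Ccnd1, Ccnd2, Cdkn1b and Cdk4. The Cdk6 call was lost in 14 of 20 alternatives. Over all genes 27.2% were called higher and 27.3% lower, so that 2 higher and 4 lower of 10 lay near the background of this large response. With a further limit of an LFC beyond 1 in size, 3 of the 10 remained, Myc, Ccnd1 and Ccnd2, against 27.2% of all genes. The groups did not overlap for 7 of the 10, including Ccne2, against 60% of all genes.

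**Figure D1:**
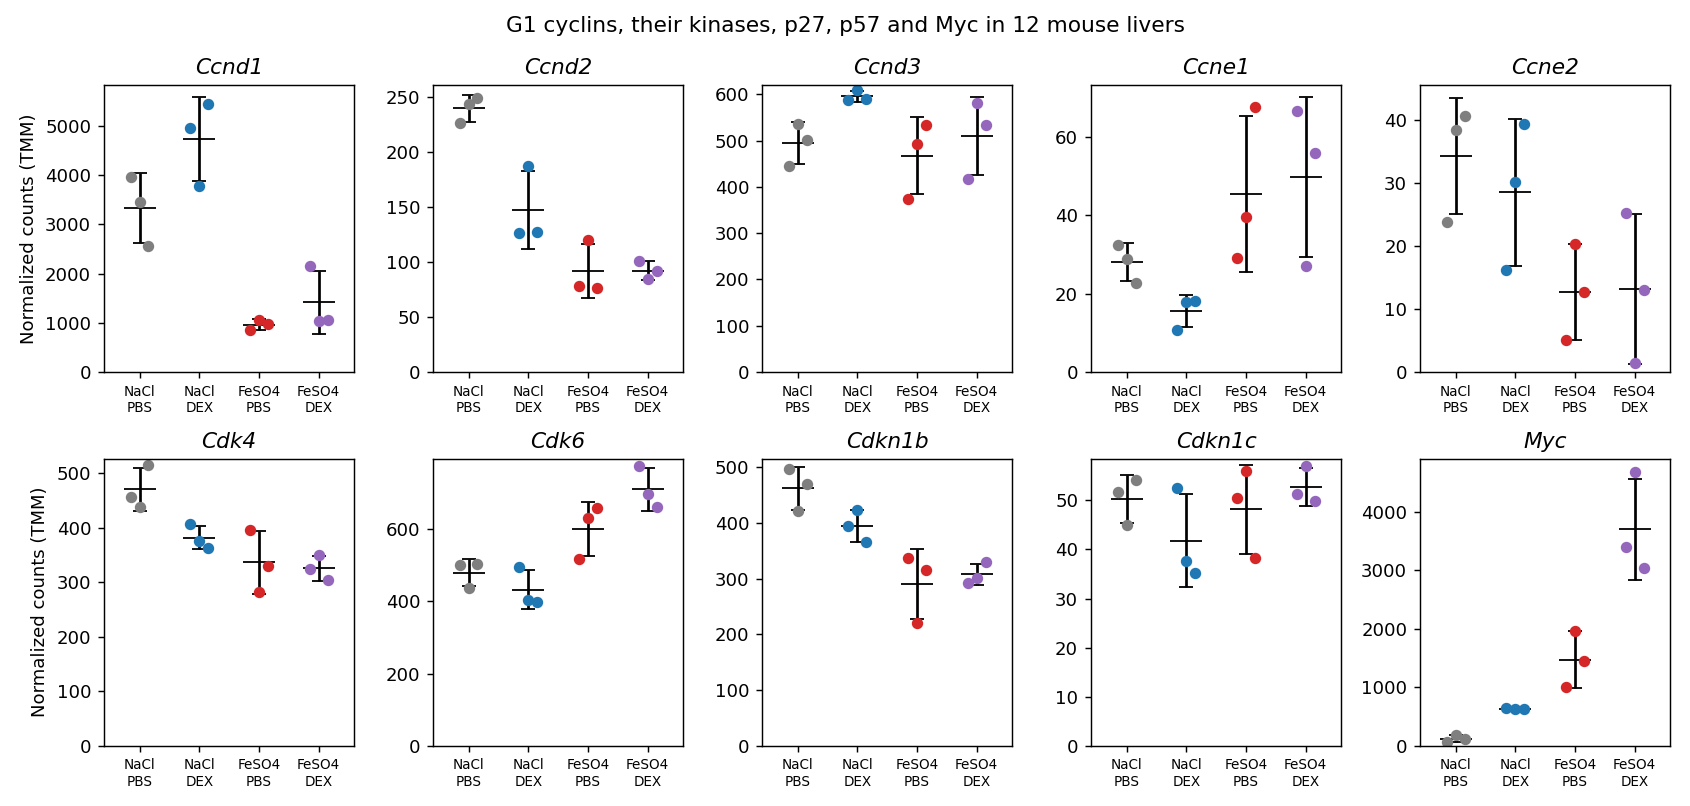
Normalized counts (linear axes from 0) of the 10 genes, with 1 point per mouse and bars for mean ± SD of 3 mice in each of 4 groups. Myc lay between 71.2 and 186 in NaCl/PBS mice and between 3040 and 4677 in FeSO4/DEX mice, while Ccnd1 was at most 2158 in FeSO4 mice and at least 2564 in NaCl mice.

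Myc (chr15:61857227-61862223, plus strand, GRCm39) encodes the transcription factor that pairs with MAX. Its level was 71.2, 186 and 116 without either agent and 1002, 1966 and 1451 after FeSO4 alone. It was 654, 631 and 624 after DEX alone and 3393, 4677 and 3040 after both. No group overlapped another, and the order was FeSO4/DEX, FeSO4/PBS, NaCl/DEX and NaCl/PBS. FeSO4 alone raised Myc 11.9-fold, with an LFC of 3.58 ± 0.31 (FDR 6.9e-07), and DEX alone raised it 5.16-fold, with an LFC of 2.37 ± 0.30 (FDR 0.00013). FeSO4/PBS mice exceeded NaCl/DEX mice by an LFC of 1.21 ± 0.28 (FDR 0.0028). FeSO4 also raised Myc within the DEX mice, by an LFC of 2.54 ± 0.29 (FDR 1.0e-05), and mice given both agents had 30.0 times the level of mice given neither.

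The further step from FeSO4/PBS to FeSO4/DEX in Myc was 2.51-fold, an LFC of 1.33 with a 95% interval of 0.74 to 1.92, but did not pass the test over all genes (FDR 0.41). DESeq2 gave this step an LFC of 1.31 and an adjusted p of 0.025. The DEX response of Myc was smaller in FeSO4 than in NaCl mice by 1.04 on the log2 scale, with a 95% interval of the difference of -1.90 to -0.18, and this difference did not pass either (FDR 0.16). It passed without FeSO4/PBS mouse 1 (-1.30, FDR 0.048) and without NaCl/PBS mouse 2 (-1.46, FDR 0.033). Per length, Myc went from the fifth highest level of the 10 genes in NaCl/PBS mice, 2.30 ± 1.07 RPKM (reads per kb of merged exons, scaled to library depth with TMM; SD, n = 3), to the highest in FeSO4/DEX mice, 68.5 ± 15.9.

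D-type cyclins divided into 2 that fell after iron and 1 without a call. Ccnd1 (chr7:144483668-144493662, minus strand), cyclin D1, is the main D-type cyclin of hepatocytes. It stood at 3970, 3458 and 2564 without either agent and at 849, 1063 and 977 after FeSO4 alone. After DEX alone it was 4962, 3779 and 5451, and after both 2158, 1032 and 1055. Every FeSO4 mouse lay below every NaCl mouse, and FeSO4/DEX mouse 1 stood apart from the other 2 of its group. FeSO4 lowered Ccnd1 3.46-fold (LFC -1.79 ± 0.26, FDR 6.0e-05) and, within DEX mice, 3.34-fold (LFC -1.74 ± 0.26, FDR 0.00011), or by an LFC of -2.18 without FeSO4/DEX mouse 1.

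After DEX the Ccnd1 LFC was 0.51 ± 0.25 in NaCl mice (FDR 0.22) and 0.56 ± 0.25 in FeSO4 mice (FDR 0.76). The NaCl/PBS and NaCl/DEX mice overlapped. The NaCl libraries were also fitted alone with the replicate number as a block, which assumes a pairing that the labels do not state. In that fit, added after seeing the data, the LFC in NaCl mice was 0.53 and the FDR 0.046. Without the filter on low counts this LFC was 0.52 with an FDR of 0.0043. The other 19 of 21 alternatives gave no call. Without FeSO4/DEX mouse 1 the LFC of DEX in FeSO4 mice was 0.11.

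Ccnd2 (chr6:127102125-127129156, minus strand), cyclin D2, was lower after either agent. It was 227, 244 and 250 without either agent, 127, 188 and 128 after DEX alone, 78.6, 120 and 76.5 after FeSO4 alone and 101, 84.3 and 91.6 after both. NaCl/PBS mice lay above all others, NaCl/DEX mice came next, and the 2 FeSO4 groups overlapped. FeSO4 lowered it 2.61-fold (LFC -1.38 ± 0.20, FDR 7.1e-05) and DEX in NaCl mice 1.62-fold (LFC -0.70 ± 0.20, FDR 0.029). The DEX call was lost without NaCl/DEX mouse 1 or 3 or without any 1 NaCl/PBS mouse (FDR 0.071 to 0.12). The block within NaCl mice, with the same assumed pairing, gave an FDR of 0.0095. Between the DEX groups FeSO4 lowered it by an LFC of -0.67 ± 0.21 (FDR 0.018), which was lost without FeSO4/DEX mouse 2 (FDR 0.052) or NaCl/DEX mouse 2 (FDR 0.11). In FeSO4 mice the DEX LFC was 0.01, with a 95% interval of -0.45 to 0.47.

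Ccnd3 (chr17:47815767-47910624, plus strand), cyclin D3, ranged from 374 to 608 over the 12 mice and had no called comparison. Its FeSO4 LFC was -0.08, with a 95% interval of -0.40 to 0.23. Scaled by library size alone it was -0.40 (FDR 0.034). After DEX in NaCl mice all 3 values (588, 608 and 589) lay above the NaCl/PBS values (445, 536 and 501), with an LFC of 0.27 ± 0.15 (FDR 0.27).

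The D-type pool shrank and its makeup shifted, as described here without a test. Per length, the summed level of the 3 D-type cyclins was 39.1 ± 7.33 RPKM without either agent, 54.0 ± 8.84 after DEX alone, 13.2 ± 1.61 after FeSO4 alone and 18.2 ± 6.40 after both (SD, n = 3). Ccnd1 made up 89.5% ± 2.54 of it in NaCl/PBS and 92.3% ± 1.85 in NaCl/DEX mice, but 77.0% ± 1.42 and 80.2% ± 7.64 in the 2 FeSO4 groups. The share of Ccnd3 was 7.10% ± 1.73 in NaCl/PBS and 19.2% ± 1.88 in FeSO4/PBS mice, and that of Ccnd2 stayed between 1.12% and 4.43% in all mice. With the longest transcript as length the Ccnd1 share was 83.4% and 64.9% in NaCl/PBS and FeSO4/PBS mice, again higher without iron.

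E-type cyclins were scarce. Ccne1 (chr7:37797404-37808264, minus strand), cyclin E1, had 10 to 69 reads per library. It was 32.4, 29.0 and 22.9 without either agent, 10.7, 17.9 and 18.1 after DEX alone, 29.2, 39.7 and 67.6 after FeSO4 alone and 66.7, 27.2 and 55.9 after both. NaCl/DEX mice were below all others. FeSO4 raised it among DEX mice by an LFC of 1.68 ± 0.41 (FDR 0.0043), whereas the FeSO4 LFC without DEX was 0.68 ± 0.38 (FDR 0.15) and that of DEX in NaCl mice -0.84 ± 0.41 (FDR 0.21). The difference between the 2 DEX responses was 1.00 ± 0.56 and did not pass (FDR 0.34).

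Ccne2 (chr4:11190303-11204947, plus strand), cyclin E2, had 1 to 48 reads per library. All 3 FeSO4/PBS mice (5.04, 20.3 and 12.8) lay below the NaCl/PBS mice (23.7, 38.3 and 40.6), with an LFC of -1.42 ± 0.61 that did not pass (FDR 0.065). It passed in 6 of 19 alternatives. Ccne1 was 56.1% ± 10.8 of the E-type level per length in NaCl/PBS and 84.8% ± 8.34 in FeSO4/PBS mice. With the longest transcript these shares were 67.1% and 89.9%, and without length 45.6% and 78.5%. Which E-type cyclin was the larger part in NaCl/PBS mice thus depended on the length scale.

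The partner kinases of the D-type cyclins moved apart. Cdk4 (chr10:126895180-126903789, plus strand) was 457, 439 and 515 without either agent, 406, 376 and 363 after DEX alone, 396, 282 and 330 after FeSO4 alone and 324, 349 and 303 after both. NaCl/PBS mice were above all others. FeSO4 lowered it 1.40-fold (LFC -0.48 ± 0.13, FDR 0.0067), and both agents lowered it by an LFC of -0.53 ± 0.13 from NaCl/PBS (FDR 0.0040). After DEX in NaCl mice the LFC was -0.30 ± 0.13 (FDR 0.16).

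Cdk6 (chr5:3391485-3581008, plus strand) was 500, 437 and 503 without either agent, 494, 404 and 399 after DEX alone, 516, 630 and 658 after FeSO4 alone and 775, 696 and 660 after both. All FeSO4 mice were above all NaCl mice. Among DEX mice FeSO4 raised it 1.64-fold (LFC 0.72 ± 0.13, FDR 0.00048). Among PBS mice the rise was 1.25-fold (LFC 0.32 ± 0.13, FDR 0.044), a call lost in 14 of 20 alternatives, among them removal of any 1 NaCl/PBS mouse or of FeSO4/PBS mouse 2 or 3. With scaling by library size alone this LFC was 0.01. The ratio of Cdk4 to Cdk6 per length was 4.11 ± 0.25 without either agent, 3.72 ± 0.24 after DEX alone, 2.40 ± 0.72 after FeSO4 alone and 1.93 ± 0.18 after both. The sum of both was 8.58 ± 0.68, 7.11 ± 0.50, 7.04 ± 0.65 and 7.26 ± 0.44 RPKM in the same order.

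**Figure D2:**
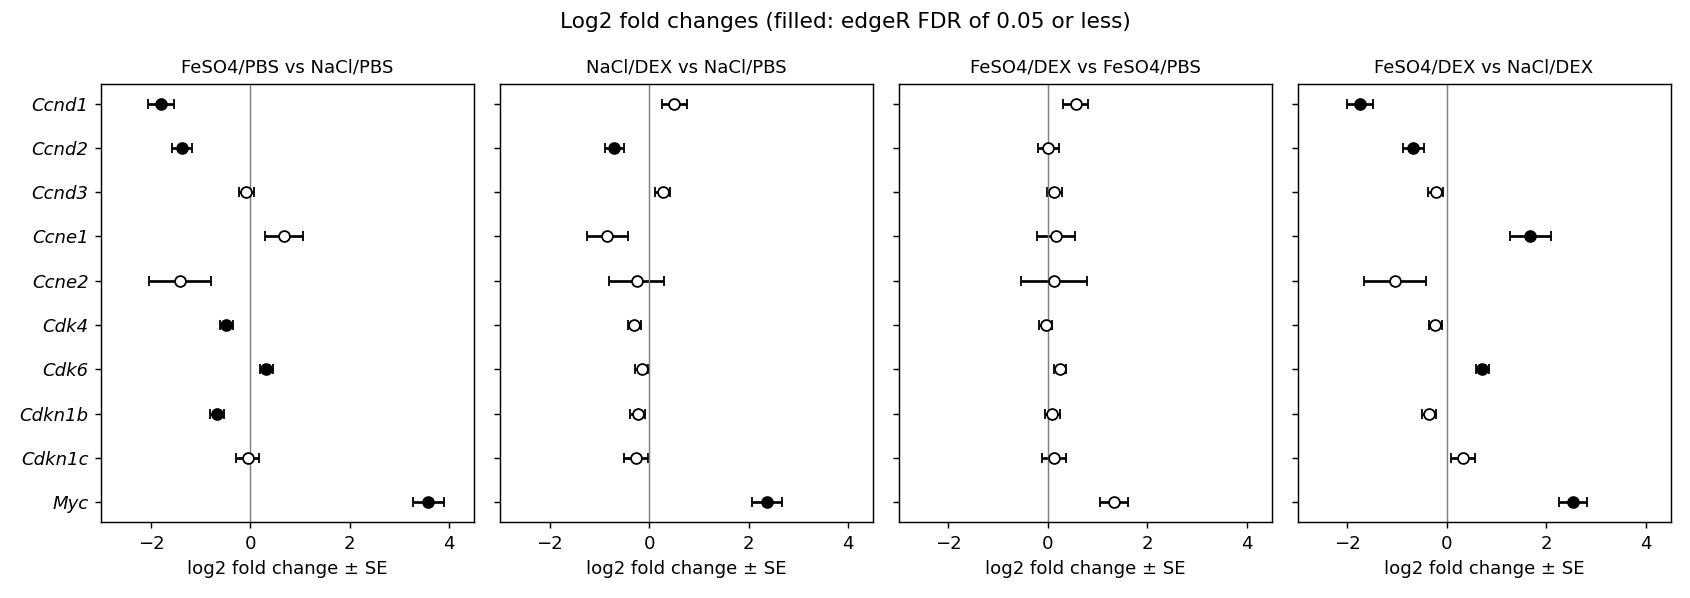
LFC ± SE of the 10 genes in 4 comparisons, with filled points for an edgeR FDR of 0.05 or less. Filled points number 6 after FeSO4, 2 after DEX in NaCl mice, 0 after DEX in FeSO4 mice and 5 after FeSO4 among DEX mice, and Myc lies to the right of 0 in all 4 panels.

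Of the inhibitors, p27 fell and p57 had no call. Cdkn1b (chr6:134897364-134902476, plus strand) was 497, 421 and 470 without either agent, 394, 423 and 365 after DEX alone, 337, 220 and 315 after FeSO4 alone and 293, 302 and 329 after both. Every FeSO4 mouse lay below every NaCl mouse. FeSO4 lowered it 1.59-fold (LFC -0.67 ± 0.15, FDR 0.0016), while the LFC was -0.36 ± 0.15 among DEX mice (FDR 0.067) and -0.23 ± 0.15 after DEX in NaCl mice (FDR 0.35). The difference between the DEX responses, 0.32 ± 0.21, did not pass (FDR 0.43). Cdkn1c (chr7:143012069-143014806, minus strand) had 30 to 72 reads and ranged from 35.2 to 57.1 with overlap of all groups, and its FeSO4 LFC was -0.06 with a 95% interval of -0.57 to 0.45.

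The third gene of that family, Cdkn1a, was not among the 10 and is named for scale. It rose from 39.6, 77.6 and 53.3 in NaCl/PBS to 2020, 2765 and 2147 in NaCl/DEX and 9851, 8603 and 9167 in FeSO4/PBS mice, an LFC of 7.35 ± 0.23 after FeSO4 and 5.36 ± 0.22 after DEX. Per length, p27 was thereby 75.6% ± 2.43 of the CIP/KIP sum without either agent, 17.9% ± 1.54 after DEX alone, 3.94% ± 0.62 after FeSO4 alone and 4.43% ± 0.52 after both. The sum itself was 6.78 ± 0.37, 24.6 ± 3.48, 81.2 ± 5.80 and 77.5 ± 6.07 RPKM in that order.

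**Figure D3:**
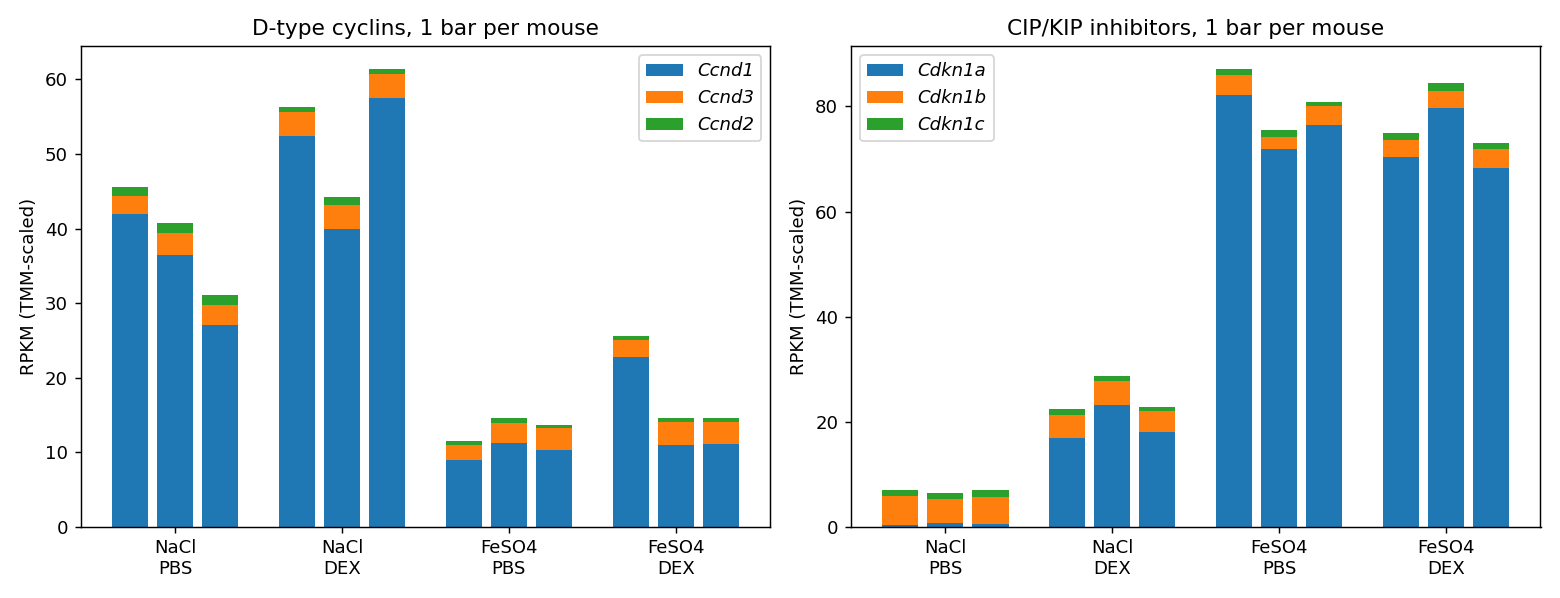
Levels per length (RPKM) of D-type cyclins (left) and CIP/KIP inhibitors (right), stacked by gene with 1 bar per mouse. The D-type sum was 31.1 to 45.5 in NaCl/PBS and 11.4 to 14.6 in FeSO4/PBS mice, and the CIP/KIP sum 6.37 to 7.05 and 75.6 to 87.2.

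DEX alone thus called 1 of the 10 genes higher, Myc, and 1 lower, Ccnd2, against 6.5% and 7.15% of all genes. With an LFC beyond 1 only Myc remained, against 6.38%. The NaCl/DEX and NaCl/PBS mice did not overlap for 5 of the 10 (Myc, Ccnd2, Ccnd3, Ccne1 and Cdk4), against 37.9% of all genes. DEX in FeSO4 mice called 0 of the 10 with edgeR, as it called 0% of all genes. At an unadjusted p under 0.05 there were 2, Myc and Ccnd1, against 6.49% of all genes, while DESeq2 called 1 (Myc) and limma voom 0. The FeSO4/DEX and FeSO4/PBS mice were separate for Myc and Cdk6, against 9.3% of all genes.

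The difference between the DEX responses passed for 0 of the 10 with edgeR, DESeq2 and voom, against 6.18% of all genes with edgeR, and 3 (Myc, Ccnd2 and Cdk6) had an unadjusted p under 0.05. FeSO4 among DEX mice called 3 higher (Myc, Cdk6 and Ccne1) and 2 lower (Ccnd1 and Ccnd2), against 22.4% and 20.9%. FeSO4/PBS mice differed from NaCl/DEX mice in 3 higher (Myc, Ccne1 and Cdk6) and 3 lower genes (Ccnd1, Ccnd2 and Cdkn1b), against 23.8% and 22.5%. FeSO4/DEX mice differed from NaCl/PBS mice in 2 higher (Myc and Cdk6) and 4 lower genes (Ccnd1, Ccnd2, Cdkn1b and Cdk4), against 26% and 26.3%. These comparisons share mice and are not independent.

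Most genes of a list that MYC is known to switch on rose after FeSO4. The list was chosen with earlier results of these data known, so the shares of all genes beside it are no test of an excess. Whether MYC caused the rises was not tested. Of 26 textbook MYC targets 19 (73.1%) rose and 1 (Cad, 3.85%) fell after FeSO4, against 27.2% and 27.3% of all genes, with a median LFC of 0.81 against -0.02 over all genes. The highest were Nop58 (LFC 2.91 ± 0.16) and Gnl3 (2.15 ± 0.13), a snoRNP core protein and nucleostemin, followed by Nolc1 (2.00 ± 0.17) and Wdr43 (1.90 ± 0.10), both nucleolar. After DEX in NaCl mice 9 (34.6%) rose and 0 fell, against 6.5% and 7.15% of all genes, with a median LFC of 0.31, led by Tfrc, the transferrin receptor (1.73 ± 0.25), and Nolc1 (1.33 ± 0.17). For the 0 that fell, DESeq2 also gave 0, and 13 of the 26 had an unadjusted p under 0.05 in either direction. After DEX in FeSO4 mice edgeR, DESeq2 and voom each called 0 of the 26, with 5 at an unadjusted p under 0.05 and a median LFC of -0.18. Scaling by library size alone left 15 higher and 4 lower after FeSO4, against 2285 higher and 5829 lower of all 13857 genes.

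**Figure D4:**
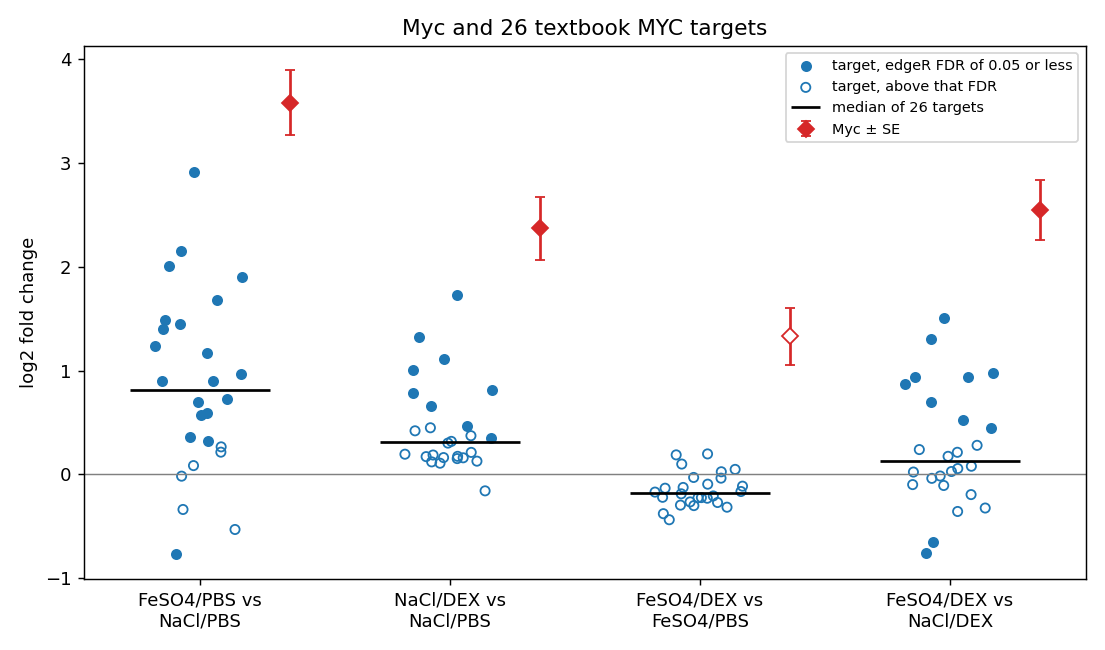
LFC of 26 textbook MYC targets (circles, filled at an edgeR FDR of 0.05 or less; bar for the median) beside Myc (diamond ± SE) in 4 comparisons. The target medians are 0.81, 0.31, -0.18 and 0.13 while the Myc LFC is 3.58, 2.37, 1.33 and 2.54.

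In the MYC/MAX network 5 of 19 tested genes (26.3%) rose and 3 (15.8%) fell after FeSO4, with a median LFC of 0.17, so that the rises lay near the 27.2% of all genes and the falls below the 27.3%. Max, the partner of MYC, rose (LFC 0.79 ± 0.14), as did Mga (0.85 ± 0.21) and the kinase Pim3 (1.54 ± 0.31), and Mxd4 fell (-1.09 ± 0.11). The other 4, named after their values were seen, were Ruvbl2 and Mxd1, which rose, and Trrap and Mycn, which fell. Mycn was at 0 reads in all 6 FeSO4 mice and between 7.91 and 31.8 normalized counts in NaCl/PBS mice, at least 5.46-fold lower against a floor of 3 reads per library (at least 3.38-fold without NaCl/PBS mouse 2). DEX in NaCl mice lowered Pim1 (-2.16 ± 0.39), Mycl (-1.46 ± 0.27) and, named after its value was seen, Mnt, and raised Mlxip, likewise named. Of the 19 genes 1 (5.26%) was thus higher and 3 (15.8%) lower, against 6.5% and 7.15% of all genes.

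Among 32 other G1/S regulators tested 10 (31.2%) rose and 8 (25%) fell after FeSO4, near the 27.2% and 27.3% of all genes, with a median LFC of 0.05. Beside Cdkn1a the highest were E2f7, a repressor E2F (LFC 2.11 ± 0.43), and Fbxo31, a ubiquitin ligase subunit (1.79 ± 0.22), and the RB relative Rbl1 fell (-1.63 ± 0.38). Skp2, which marks p27 for degradation, is named after its value was seen. It fell after FeSO4 (-2.47 ± 0.59, FDR 0.0027), with 28.1 to 37.2 normalized counts in NaCl/PBS and 1.02 to 15.3 in FeSO4/PBS mice. After DEX in NaCl mice 1 (3.12%) rose, Cdkn1a, and 3 (9.38%) fell, against 6.5% and 7.15% of all genes. Those that fell were Cks2 (-1.06 ± 0.20) and, named after their values were seen, Cdkn2d and E2f2. With library size alone the FeSO4 counts were 4 higher and 11 lower, against 2285 higher and 5829 lower of all 13857 genes.

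Of 24 tested S, G2 and M phase genes 6 (25%) rose after FeSO4, near the 27.2% of all genes, and 0 fell, against 27.3%, with a median LFC of 0.48. Those that rose were Rrm2, a ribonucleotide reductase subunit (3.54 ± 0.37), the replication factors Cdt1 (1.60 ± 0.35), Pcna (0.80 ± 0.13) and Mcm7 (0.67 ± 0.18) and, named after their values were seen, Mybl2 and Plk1. In all, 8 had an unadjusted p under 0.05, and DESeq2 called 7 higher and 1 lower. Just above the FDR threshold, and named after their values were seen, were Ccnb1 (1.76 ± 0.72, FDR 0.051) and Birc5 (-1.50 ± 0.62, FDR 0.052). Errors were wide for some genes, with an SE of 0.95 for Cdc6 and 0.90 for Bub1, so moderate falls could go uncalled. After DEX in NaCl mice edgeR called 0, with 5 at an unadjusted p under 0.05, and DESeq2 called 2 higher. Without NaCl/DEX mouse 1 edgeR called 4 higher, and without FeSO4/PBS mouse 1 it called 3.

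A list around the D-type cyclins and p27 held candidate upstream regulators, but also other cyclins such as Ccnl1 and Ccng1 and Gadd45 stress genes. Of its 37 tested genes, 20 (54.1%) rose and 13 (35.1%) fell after FeSO4, against 27.2% and 27.3% of all genes. The median LFC was 0.62. After DEX in NaCl mice 7 (18.9%) rose and 8 (21.6%) fell, against 6.5% and 7.15%, with a median of -0.08. This list too was chosen with earlier results of these data known, so its shares are description only. The AP-1 genes Jun (LFC 4.02 ± 0.40) and Atf3 (5.75 ± 0.58) rose after FeSO4, and so did the stress gene Gadd45b (4.80 ± 0.53). Fosl1 was at most 0.94 normalized counts in NaCl/PBS and 232 to 290 in FeSO4/PBS mice. After DEX Gadd45b (4.34 ± 0.52) and Gadd45g (3.44 ± 0.60) rose.

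Genes whose log2 level followed a member most closely over the 12 libraries were sought among the tested genes, as a description. Rik, Gm and other predicted genes were left out of this search. Likeness was measured by Pearson's r, and all points share the group structure. Igfbp1, a binding protein of insulin-like growth factors, and Slc38a2, an amino acid transporter, were nearest to Myc (r = 0.976 each), with Rabgef1 next (0.975). Wwc1 was nearest to Ccnd1 (0.975), Abcg1, a cholesterol exporter, to Ccnd2 (0.974), Mtfmt to Cdk4 (0.975), Nup43 to Cdkn1b (0.977) and Mysm1 to Cdk6 (0.980). For Cdk6, Zc3h12c (0.961) and Mga (0.960) came next. Ccnd3 was nearest to Apbb2 (0.904) and Prob1 (0.877), with Rb1, the substrate of its kinase, at rank 3 (0.876). Among the members Cdk4 and Cdkn1b were the pair most alike (0.885), and Myc ran against Cdk4 (-0.865), Ccnd2 (-0.861) and Cdkn1b (-0.837).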

How the data were processed

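Stranded mRNA libraries of 12 livers were sequenced single-end. Per the labels and the methods, the authors mapped reads to mm39 with STAR 2.7.10b, using GENCODE junctions, and deposited whole-number read counts per Ensembl gene with no normalization. Which strand column was deposited is not given in the sources used here. Symbols, positions and lengths came from GENCODE vM39 on GRCm39, and promoters from RefSeq (GRCm38.p6, 5 of the 10 genes).

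Counts were fitted with edgeR 4.0.16 (R 4.3.3) in 1 quasi-likelihood model of all 12 libraries with a mean per group, after filterByExpr and TMM. The prior count was 0.125, the biological coefficient of variation 0.169 and the prior degrees of freedom 5.93. DESeq2 1.42.0 and limma 3.58.1 (voom) were alternatives, as were other scalings and filters, a replicate block, fits of the compared libraries alone and each mouse left out. Levels per length are RPKM over merged exons with TMM-scaled libraries, computed here. Where all libraries of a group had 3 reads or fewer, a fold is a bound set by this floor, and the floor reflects counting error alone. The model was tested on simulated data. Few genes were changed there, so that test cannot speak for the scaling under a response as broad as that to FeSO4.

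The labels call the 3 mice per group biological replicates. Deviations of same-numbered mice from their group means correlated at 0.276, 0.305 and 0.176 between NaCl/PBS and NaCl/DEX. Over all 18 same-number pairs the correlation ran from -0.18 to 0.30. Mice of different numbers ran from -0.41 to 0.12 between the NaCl groups, but reached 0.315 for FeSO4/DEX mouse 1 and FeSO4/PBS mouse 3. The numbers were taken to pair the NaCl mice in the added fit of those mice alone, while the main fit held no pairing. The labels state no pairing, and these values do not establish one. The 10 genes and the lists were chosen with earlier results of these data known. Named from each list were up to 4 called genes with the largest LFC after FeSO4 and 2 after DEX. These had at least 50 normalized counts in the higher group. Up to 3 genes most alike to a member were also named, leaving out Rik, Gm and other predicted genes.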

Additional observations from a re-analysis of the deposited data

Results flagged for a closer look

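The DEX response differed between FeSO4 and NaCl mice, by the edgeR test of the difference itself, for 22 of 138 tested genes (15.9%) of the lists around the 10 members, against 6.18% of all genes, and for 0 of the 10. The lists were chosen with earlier results of these data known, so the higher share is description only. Values are the LFC of DEX in FeSO4 mice minus that in NaCl mice. A difference below 0 does not tell a lost response from a level already high after FeSO4 alone. Cdkn1a, for example, was at 2020, 2765 and 2147 in NaCl/DEX mice. It was at 9851, 8603 and 9167 in FeSO4/PBS and at 8435, 9544 and 8176 in FeSO4/DEX mice. Why the responses differed was not tested. Differences below 0 were found for Cdkn1a (-5.44), for the stress genes Gadd45b (-3.07) and Gadd45g (-2.87) and for 9 MYC targets, Nolc1 (-1.76), Tfrc (-1.53), Nop58 (-1.41), Nop56 (-1.38), Odc1 (-1.0), Wdr43 (-0.92), Gnl3 (-0.84), Mybbp1a (-0.73) and Eif4e (-0.51). The transcription factors Cebpb (-1.10), Foxo1 (-1.02) and Foxo3 (-1.0) followed. Differences above 0 were found for Lgr5 (2.65), Tbx3 (2.28), Gadd45a (2.09), Pim1 (2.08), Mycl (1.72), Tcf7l2 (0.95) and Cebpa (0.66).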

How the results depend on the processing

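Limits were the spread between 3 mice per group and, for Ccne1, Ccne2 and Cdkn1c, the low number of reads. Of the LFCs of the 10 genes under the alternatives, 1296 kept direction and side of the threshold, 35 passed newly, 30 no longer passed and 32 changed sign. The cause of these changes was not tested.

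Requiring an LFC beyond 1 left 3 genes called after FeSO4, 1 after DEX in NaCl mice, 3 after FeSO4 among DEX mice, 3 between FeSO4/PBS and NaCl/DEX and 3 between FeSO4/DEX and NaCl/PBS, as fewer genes can pass that rule. DEX in FeSO4 mice gave 1 call with DESeq2 and 2 without a filter on low counts, where the difference between DEX responses also gave 1. Without that filter 25013 genes were tested and the dispersions were shrunk fully to their trend (infinite prior degrees of freedom). Library size alone gave 8 calls after FeSO4 among DEX mice, where it called 2151 higher and 4146 lower of all 13857 genes. With 1 mouse left out, calls after DEX in NaCl mice ranged from 1 to 2 and those of the difference from 0 to 1. The Ccnd1 share of the D-type cyclins in NaCl/PBS, NaCl/DEX, FeSO4/PBS and FeSO4/DEX mice was 83.4%, 87.1%, 64.9% and 69.3% with the longest transcript and 81.5%, 86.1%, 63.4% and 68.1% without length.

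LFCs that changed sign had not passed the test. DEX in FeSO4 mice gave Ccnd2 -0.0050 with DESeq2, -0.0050 with its size factors and -0.015 with library size alone, and Ccne2 -0.22 with voom. The Ccnd1 difference between DEX responses was -0.038 with voom and -0.034 with the replicate block over all 12 libraries, and FeSO4/DEX against NaCl/PBS gave Ccnd3 -0.31 and Cdkn1c -0.28 with library size alone. With 1 mouse left out, DEX in FeSO4 mice ranged from -0.11 to 0.26 for Ccnd2, -0.033 to 0.26 for Ccnd3, -0.11 to 0.54 for Ccne1, -0.76 to 0.67 for Ccne2, -0.16 to 0.069 for Cdk4, -0.084 to 0.19 for Cdkn1b and -0.020 to 0.24 for Cdkn1c. The difference between DEX responses ranged from -0.39 to 0.20 for Ccnd1 and -0.51 to 0.92 for Ccne2, FeSO4 from -0.18 to 0.060 for Ccnd3 and -0.17 to 0.083 for Cdkn1c, DEX in NaCl mice from -0.55 to 0.026 for Ccne2, and FeSO4/DEX against NaCl/PBS from -0.072 to 0.17 for Ccnd3 and -0.011 to 0.11 for Cdkn1c.

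The replicate block over all 12 libraries gave 5 calls after FeSO4 (Cdk6 LFC 0.33, FDR 0.059), 2 after DEX in NaCl mice and 7 between FeSO4/PBS and NaCl/DEX, with Ccnd3 added (-0.37, FDR 0.029). The assumed pairing within NaCl mice alone gave 3 calls after DEX. The fit of NaCl mice alone with the block, the shares with 1 mouse left out and the list counts under alternatives were added after seeing the data.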
